A study of Mus musculus with 6 samples.

Results

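Imprinted genes are expressed mainly from 1 parental allele, and 41 of them were followed here in the RNA of mouse ovaries at E15.5 (E, embryonic day). The members were listed by name as known mouse imprinted genes, and no measured value entered the rule. Earlier results of these data were known when the members were chosen. A transcript of the deposited annotation was assigned to a member when it carried its gene name, which gave 253 of the 114412 transcripts. The list comprised 21 paternally expressed genes, 12 maternally expressed genes and 8 genes whose imprinting depends on the tissue or the isoform. They lie in 17 clusters, of which 8 held a single member here. The counts of all transcripts with the same name were summed, and 40 of the 41 genes passed the filter on low counts, against 19435 of all 35974 named genes. The exception was Snrpn, whose named transcripts had 0 counts in every pool.

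The ovaries came from embryos of inbred C57BL/6J mice (C57Bl6j in the labels). In the PB group, the mothers received panobinostat (PB), an inhibitor of histone deacetylases, by oral gavage at 5 mg/kg from E6.5 to E15.5. In the control group they received DMSO and water. The labels give the dose per day and the study's methods every other day, and the treatment text of the labels is the same for all pools, so that the groups rest on the sample titles and treatment tags. Each group comprised 3 pools, and a pool held 4 ovaries according to the RNA extraction protocol and 6 to 8 according to the series description. The study's methods give a minimum at the upper end of that range. The series description names every library as one from an exposed mouse. No source used here names the litter behind each pool. The p-values therefore measure the spread between pools alone. With an inbred strain the reads of the parental alleles cannot be told apart, and every value below is a total RNA level and no measure of imprinting itself. A pool mixes germ cells and somatic cells, and fewer cells of a type and less RNA per cell cannot be told apart.

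In an imprinted cluster, a differentially methylated region inherited from 1 parent usually controls several neighbouring genes in cis. Many clusters pair a protein-coding gene that is active on 1 allele with a long non-coding RNA that is active on the other, such as Igf2 with H19 or Igf2r with Airn. As a group, paternally expressed genes are known for fetal growth promotion and maternally expressed ones for growth restraint. In female germ cells the methylation marks of the parents are erased in the fetal gonad and are set again in growing oocytes after birth, so that fetal oocytes carry few of them, whereas the somatic cells of the ovary keep theirs. The zinc finger protein ZFP57 holds the marks in the early embryo by binding a short methylated motif.

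The RefSeq promoter table (GRCm38.p6, 250 bases before to 50 bases after a gene start) had a window for 34 of the 41 members. The ZFP57 core TGCCGC, searched on both strands, was found in a window of 8 of the 34 members (23.5%) and in 13.1% of all 27025 genes with a window. A gene with several starts had several windows and was counted when any of them held the core, so that it had more chances. Per window, the core was found in 11.6% of all 32851 windows, a share that was not taken for the members. The member windows held a median of 15 CpG dinucleotides at the richest start of a gene, against 8.0 over all genes. These shares are a description of letters and no evidence of binding. A window each of Mest, Meg3 and Grb10 is shown because differences described below concern these genes, for Mest by transcript and for Meg3 by gene name only. The windows of Ascl2 and Phlda2, with log2 fold changes of -0.64 and -0.61, do not hold the core and are not printed. Each printed window holds the core or its reverse complement GCGGCA, in capitals. Mest, Meg3 and Grb10 each also have a window without the core, which is not printed. For Meg3 that window covers the start of NR_003633.3, which held 85.3% of the counts under the name. The name held 15.7% of the counts of the Meg3 locus. Most of the other counts were in assembled transcripts under the name Mir1906-1, which begin within the printed window. The mature sequences of the miRNAs hosted by H19 and Meg3 are shown because the deposited annotation gave their names to most of the reads of these loci in some pools, and capitals mark the seed (bases 2 to 8).
Mest, chr6:30737800-30738099, plus strand: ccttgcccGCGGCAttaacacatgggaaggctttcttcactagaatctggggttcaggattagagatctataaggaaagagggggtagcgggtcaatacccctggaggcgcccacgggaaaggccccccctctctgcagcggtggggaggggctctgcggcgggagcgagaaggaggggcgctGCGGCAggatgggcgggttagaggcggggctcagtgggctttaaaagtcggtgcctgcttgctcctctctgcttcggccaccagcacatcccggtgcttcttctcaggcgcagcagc
Meg3, chr12:109540746-109541045, plus strand: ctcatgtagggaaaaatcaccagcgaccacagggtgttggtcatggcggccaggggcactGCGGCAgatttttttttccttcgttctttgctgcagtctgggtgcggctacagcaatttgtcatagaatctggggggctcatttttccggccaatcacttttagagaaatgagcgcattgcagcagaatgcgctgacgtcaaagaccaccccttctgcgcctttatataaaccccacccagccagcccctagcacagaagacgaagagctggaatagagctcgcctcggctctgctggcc
Grb10, chr11:12037371-12037670, minus strand: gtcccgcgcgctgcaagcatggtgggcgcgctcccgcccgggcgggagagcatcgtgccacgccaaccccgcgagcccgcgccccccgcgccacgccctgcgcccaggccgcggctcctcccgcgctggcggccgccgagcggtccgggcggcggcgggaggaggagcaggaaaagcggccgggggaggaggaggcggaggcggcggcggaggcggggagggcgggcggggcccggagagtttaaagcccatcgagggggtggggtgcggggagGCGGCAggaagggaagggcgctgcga
mmu-miR-675-5p, chr7:142577112-142577133, minus strand: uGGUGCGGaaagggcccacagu
mmu-miR-675-3p, chr7:142577078-142577099, minus strand: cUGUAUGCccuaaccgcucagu
mmu-miR-1906, chr12:109544588-109544609, plus strand: uGCAGCAGccugaggcagggcu
The 3 mature miRNAs have different seeds.

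The total counts were between 97165644 and 125985399 per pool, and a level of 3 counts, the floor of detection, was 0.0257 to 0.0319 counts-per-million (CPM) for gene sums. This floor covers counting error only. CPM values are scaled by TMM, and levels are compared between genes only as counts per exon length scaled to transcripts-per-million (TPM), the per-length level. The germ cell, pregranulosa and stromal markers of a fetal ovary were all present, with no gene of these 3 lists at or under the floor in every pool. Of the germ cell markers, the most abundant per length was Sycp3, a component of the synaptonemal complex, at 118, 111 and 116 CPM in control and 172, 81.2 and 183 CPM in PB-exposed ovaries. Kitl, the ligand of KIT, led the pregranulosa list with between 552 and 650.4 CPM, and Col3a1 the stromal list with between 2251 and 2498 CPM. Cdh5 led the endothelial list with 102, 98.3 and 114 CPM in control and 88.4, 108 and 88.6 CPM in PB-exposed ovaries. This list summed to between 323 and 351 CPM in control and between 306 and 327 CPM in PB-exposed ovaries. The red blood cell list, led by Hbb-bs, summed to 15029.9 to 31926 CPM in control and 18338 to 20100.2 CPM in PB-exposed ovaries, and Hbb-bs itself ranged from 5709 to 13108 CPM. Of the Y-linked list, which summed to at most 0.439 CPM, Eif2s3y was the most abundant at up to 0.206 CPM. Of 5 mesonephric markers, led by Pax8 (10.6 to 14.5 CPM), none was at or under the floor, and their summed level was 15.1 to 33.4 CPM in control and 14.5 to 21.1 CPM in PB-exposed ovaries. The 4 adrenal markers, led by Mc2r, summed to at most 0.988 CPM, and Cyp11b2 was at or under the floor in every pool. No marker of these lists passed the thresholds.

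The imprinted genes spanned a wide range of per-length levels. H19 was the most abundant, with between 2988 and 4232 TPM when all transcripts of its locus were summed. By gene name it fell to 173 and 155 TPM in control 2 and 3, where its reads carried another name (described below). It was followed by Igf2, Gnas and Cdkn1c, which ranked 89, 96 and 151 among all named genes by their mean over the 6 pools. Igf2, the fetal growth factor, had between 973 and 1326 TPM and a median of 1121. Gnas, which encodes the stimulatory G protein alpha subunit, had between 969 and 1189.6, a range that overlapped that of Igf2. The cyclin-dependent kinase inhibitor gene Cdkn1c ranged from 459 to 697 and Mest, which encodes an alpha/beta hydrolase fold protein, from 345 to 439, and these 2 did not overlap each other or their other neighbours. Cd81, Dlk1, Peg3, Peg10, Nnat and Ndn followed, each overlapping the next. By gene name, 12 members had a mean of at least 100 TPM and 17 a mean under 10. These 17 include Snrpn, Meg3 and Rian, of whose reads many or all carry another name or none. By locus, Snrpn was between 15.1 and 19.1 TPM and Rian between 18.9 and 31.6 TPM. Neighbours in this order overlapped in their pool ranges in 34 of 40 pairs. The least abundant members with reads, per length, were Ascl2, Kcnq1ot1 and Rasgrf1. Rasgrf1, known for imprinted expression in neonatal brain, had between 0.0114 and 0.132 TPM. The non-coding RNAs Airn, Kcnq1ot1 and Mirg were each at 10 TPM or less in every pool, by name and by locus. Meg3 was under 10 TPM by name but between 7.50 and 31.5 TPM by locus.

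**Figure D1:**
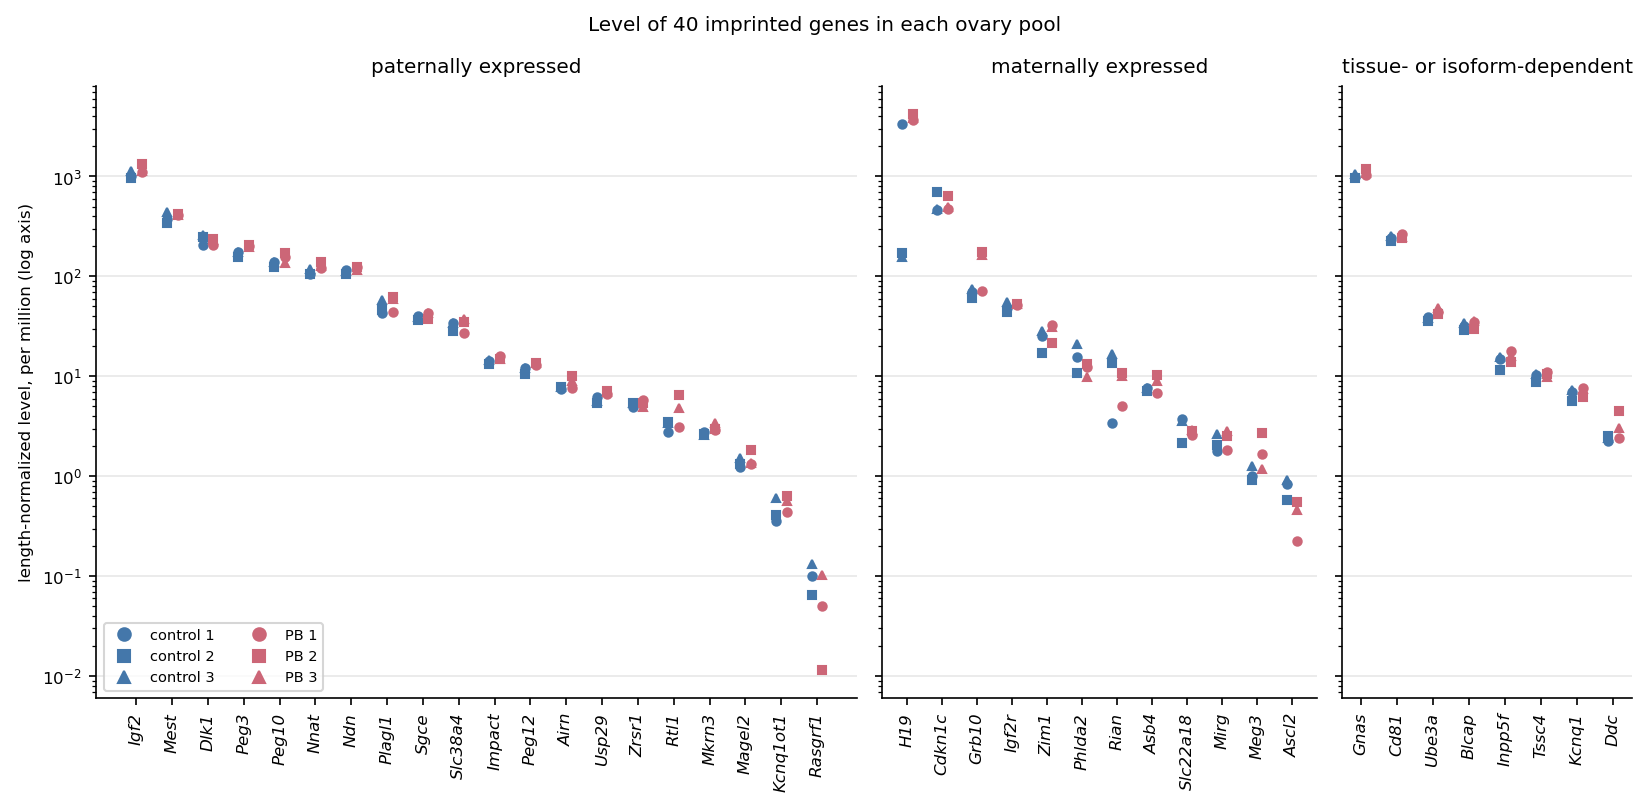
Per-length level (TPM, log axis) of the 40 imprinted genes with reads, 1 point per pool, blue for control and red for PB, in 3 panels by the allele known to be expressed. Most genes show 6 points close together, whereas H19 shows 2 control pools at 173 and 155 TPM, far below the other 4 pools.

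Of the 40 members tested, 0 passed the thresholds (2-fold, Benjamini-Hochberg FDR 0.05) in edgeR's quasi-likelihood test. Over all genes 3 of 19435 (0.0154%) passed. DESeq2's Wald test called 0 of the members and 0.0422% of all genes. An unadjusted p-value under 0.05 was found in 6 members, namely Peg3, Ube3a, Meg3, Grb10, Phlda2 and Ascl2, against 4.46% of all genes. The FDR of each of them was 0.888. By locus, Meg3 was not among such members and H19 was (described below). In 31 of the 40 genes the log2 fold change was smaller than 0.2 in size. The median log2 fold change was 0.036 over the members and 0.002 over all genes, and it was above 0 in 25 of 40 members and in 50.7% of all genes. Of the 20 paternally expressed genes tested, 15 had a log2 fold change above 0 and the median was 0.074. The largest of these values was that of Rtl1 (0.46), whose counts by name are mostly those of an opposite-strand transcript (described below). By locus, where Rtl1 had 0.23, 15 of the 21 paternally expressed genes were above 0, with a median of 0.046. The 12 maternally expressed genes were split evenly, with a median of 0.010 and a range from -0.64 to 1.58. The 8 genes with tissue- or isoform-dependent imprinting were also split evenly and ranged from -0.16 to 0.36.

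**Figure D2:**
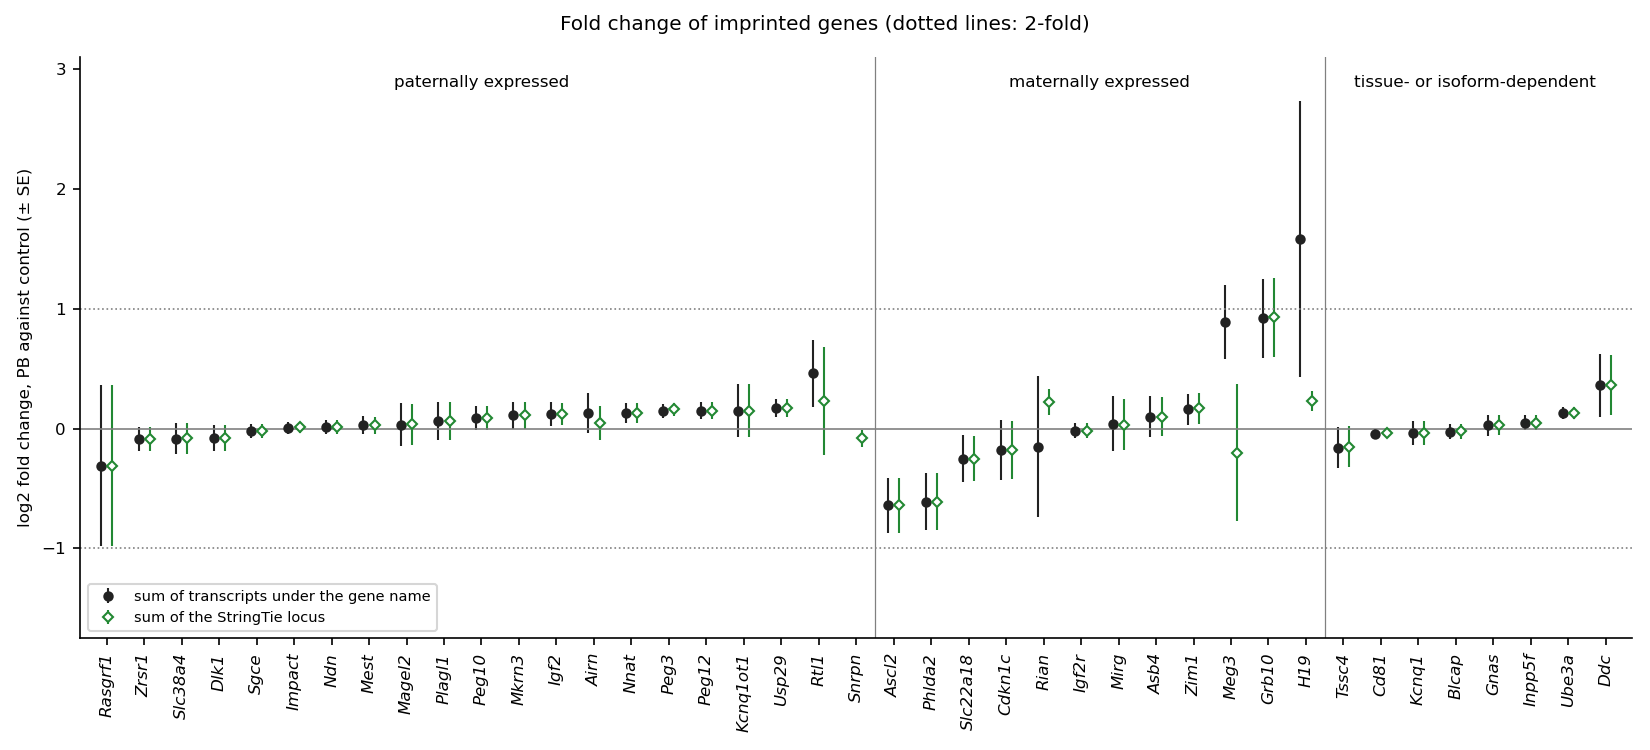
Log2 fold change of each imprinted gene, PB against control, with its SE (vertical line), ordered by value within the 3 allele groups. Black points are sums over the transcripts that carry the gene name and green diamonds sums over the StringTie locus. H19 lies at 1.58 by name and at 0.23 by locus, and Meg3 at 0.89 by name and at -0.20 by locus.

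In the Igf2-H19 cluster on chromosome 7, the level of the non-coding RNA H19 depended on how the assembled transcripts were named. By gene name, control 1, 2 and 3 had 512339, 33595 and 22030 H19 counts, and PB 1, 2 and 3 had 514653, 658343 and 637820. The low values of control 2 and 3 put the log2 fold change at 1.58 (SE 1.15, FDR = 0.888), and without control 1 the gene was called with a log2 fold change of 4.45. In control 2 and 3, an assembled transcript that spans H19 and continues past its 3′ end (MSTRG.17225.1, chr7:142502700-142578146) held 557216 and 403836 counts under the name Mir675, the miRNA within H19. It had 0 counts in the other 4 pools. When all transcripts of the StringTie locus were summed, H19 had 511980, 590342 and 425529 counts in control and 540209, 657592 and 637424 in PB-exposed ovaries. The locus was measured at 4740 ± 350.1 CPM (SD, n = 3) in control and 5569 ± 521 CPM in the PB group (log2 fold change 0.23, SE 0.086, FDR = 0.895 in edgeR's test across 21208 loci). The PB pools lay above the control pools, as in 6 of the 41 member loci without overlap, in either direction, against 10.6% of all loci. None of the member loci passed the thresholds, against 0.0141% of all loci.

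Igf2 had 2708, 2775 and 2740.3 CPM in control and 2722, 3459.8 and 2778 CPM in PB-exposed ovaries. Only PB 2 stood apart, and the groups overlapped (log2 fold change 0.12, SE 0.10, FDR = 0.888). Per length, the ratio of the H19 locus to Igf2 was 3.03 ± 0.351 in control and 3.36 ± 0.143 in PB-exposed ovaries. Igf2r encodes the receptor that removes IGF2, and its level was 295, 287 and 323 CPM in control and 284, 312 and 297 CPM in PB-exposed ovaries (log2 fold change -0.018, SE 0.062). Airn, which is transcribed from within Igf2r on the opposite strand and silences it in cis on the paternal allele, had a log2 fold change of 0.13 (SE 0.17). The per-length ratio of Airn to Igf2r was 0.157 ± 0.0167 in control and 0.168 ± 0.0216 in PB-exposed ovaries.

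Further loci that carried several names lie in the Dlk1-Meg3 cluster on chromosome 12. Meg3, a maternally expressed long non-coding RNA, had 6.75, 7.01 and 6.53 CPM by name in control and 10.8, 19 and 7.75 CPM in PB-exposed ovaries. The 3 PB pools lay above the controls (log2 fold change 0.89, SE 0.31, FDR = 0.888). However, transcripts under the name Mir1906-1 held between 68.0% and 94.9% of the counts of the locus. Summed over the locus, Meg3 had 3214, 4301 and 12128 counts in control and 3347, 7116 and 8043 in PB-exposed ovaries, with control 3 the highest. The log2 fold change was then -0.20 (SE 0.57, FDR = 0.960). For Rian, a host of small nucleolar RNAs, the sign also changed. Its log2 fold change was -0.15 (SE 0.59) by name and 0.22 (SE 0.11, FDR = 0.895) by locus, where transcripts named AF357359 held between 58.2% and 89.9% of the counts.

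**Figure D3:**
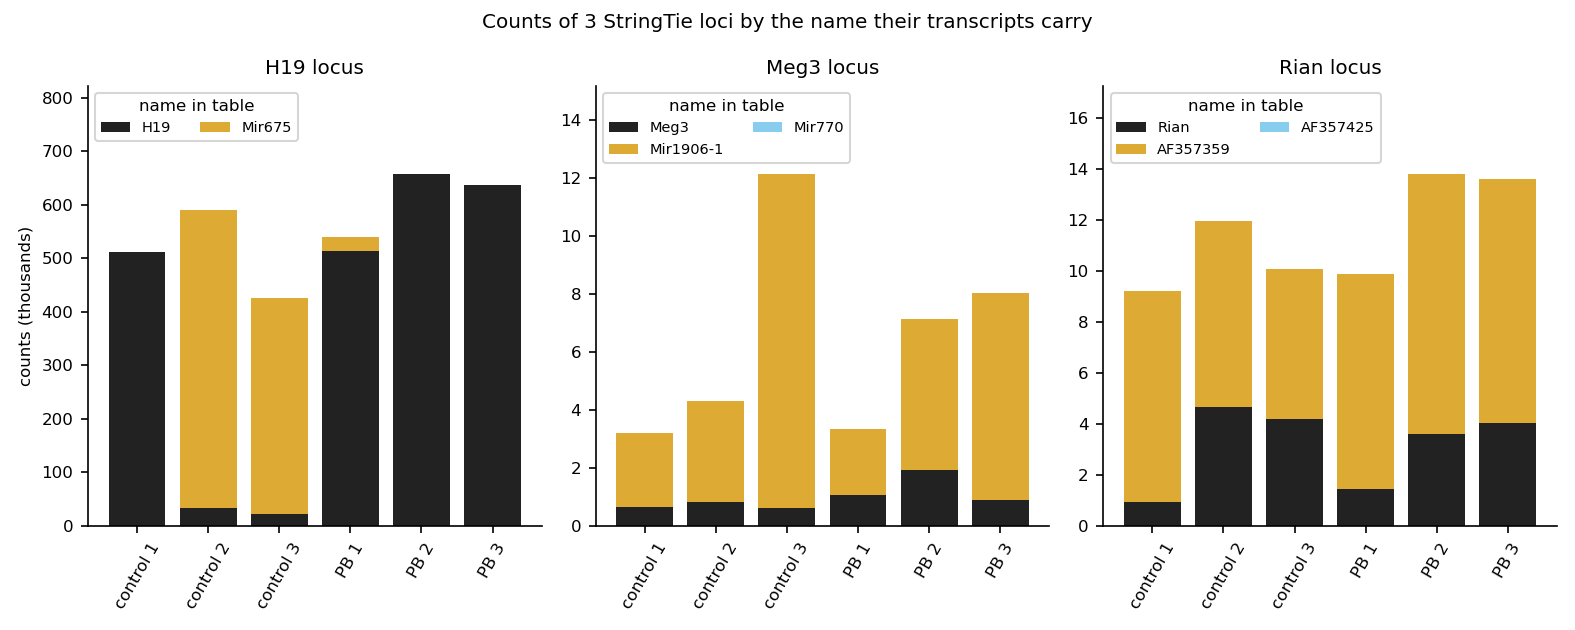
Counts of the StringTie loci of H19, Meg3 and Rian in each pool, stacked by the name that the deposited annotation gives to the transcripts. In the H19 locus, 94.4% and 94.9% of the counts of control 2 and 3 carried the name Mir675, against at most 4.78% in the other 4 pools.

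The paternally expressed Dlk1, which encodes a transmembrane protein related to Notch ligands, had 270, 323 and 329 CPM in control and 257, 324 and 293 CPM in PB-exposed ovaries (log2 fold change -0.079, SE 0.11). One assembled Dlk1 transcript, MSTRG.4332.1, had 0 counts in all control pools and in PB 1 but 3391 and 3321 counts in PB 2 and 3. It was called by DESeq2 (FDR = 0.0323) and did not pass the edgeR filter. The assembled transcripts MSTRG.4332.7 and MSTRG.4332.2 held 45.0% and 21% of the Dlk1 counts, with log2 fold changes of 0.16 (SE 0.19) and 0.091 (SE 0.23). For Rtl1, a retrotransposon-derived gene, 82.2% of the counts under its name belonged to a transcript of the opposite strand. Its own-strand transcript NM_184109.1 had 133, 277 and 225 counts in control and 123, 415 and 222 in PB-exposed ovaries, and the groups overlapped. Mirg, a host of miRNAs, was measured at between 1.47 and 2.28 CPM (log2 fold change 0.039, SE 0.23).

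Mest on chromosome 6 differed little as a gene sum, whereas 1 of its transcripts rose. The gene was at 659.5, 646 and 739.8 CPM in control and 666, 746 and 672 CPM in PB-exposed ovaries (log2 fold change 0.027, SE 0.075, FDR = 0.957). The transcript XM_017321427.1 had 2856, 2579 and 1672 counts in control and 25664, 29880 and 31596 in PB-exposed ovaries. All PB pools were far above the controls, and the transcript rose 12-fold (log2 fold change 3.58, SE 0.21, FDR = 0.0337). It was the only one of 173 tested member transcripts called by edgeR, which called 0.0332% of all 51227 transcripts tested. With 1 pool left out, the log2 fold change was between 3.41 and 3.78, and the FDR between 0.0603 and 0.143, so that the call was lost in each of these 6 fits. The main transcript, NM_008590.2, had 61645, 72341 and 67525 counts in control and, again without overlap, 40205, 46259 and 46343 in PB-exposed ovaries (log2 fold change -0.64, SE 0.079, FDR = 0.197). The minor transcript NM_001252292.1 had 303, 380 and 481 counts in control and 145, 144 and 152 in PB-exposed ovaries (log2 fold change -1.45, SE 0.30, FDR = 0.596), and DESeq2 called it (FDR = 0.000237). DESeq2 called 4 member transcripts in all, against 1.85% of all transcripts.

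As a share of the Mest counts, XM_017321427.1 held 3.41% ± 1.00 (SD, n = 3) in control and 39.5% ± 0.843 in PB-exposed ovaries. The share of NM_008590.2 was 96.0% ± 0.893 in control and 60.3% ± 0.835 in PB-exposed ovaries. The 3 transcripts begin within the Mest promoter window printed above. XM_017321427.1 begins 23 bases before NM_008590.2, its last exon starts 96 bases earlier, and it includes an exon of 104 bases (chr6:30740240-30740343) that NM_008590.2 lacks and NM_001252292.1 contains. StringTie divides the reads of shared exons among the transcripts, and the reads over this exon or the last intron were not analysed here.

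**Figure D4:**
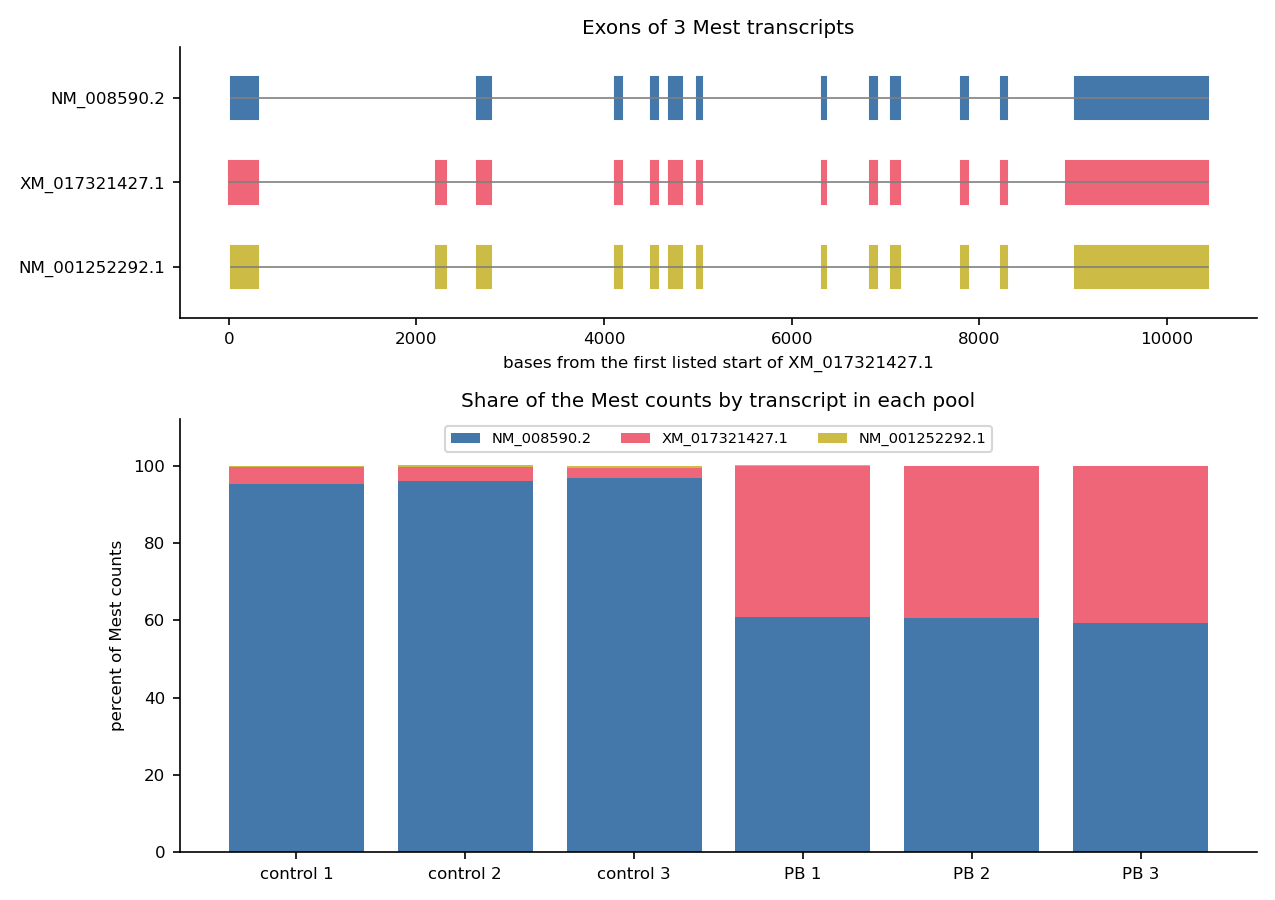
Upper panel, exons (boxes) of 3 Mest transcripts by distance in bases from the first start. Lower panel, the percent of the Mest counts that each transcript held in each pool. XM_017321427.1 held between 2.40% and 4.41% in the control pools and between 38.9% and 40.5% in the PB pools.

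Grb10, which encodes an adaptor that dampens signalling from the insulin and IGF receptors, divided the PB pools. The gene had 236, 227 and 246 CPM in control and 224, 597 and 524 CPM in PB 1, 2 and 3. PB 2 and PB 3 were higher than every control pool and PB 1 was lower than each of them, so that the groups overlapped (log2 fold change 0.92, SE 0.33, FDR = 0.888). Without PB 1 the gene was called, with a log2 fold change of 1.24. The transcript XM_006514529.1 had 8073, 7852 and 7753 counts in control, 7177 in PB 1 and 56700 and 54132 in PB 2 and 3. Its share of the Grb10 counts was between 29.7% and 34.9% in the control pools and in PB 1, and 92.9% and 88.9% in PB 2 and 3. NM_010345.4, with 17 exons instead of 18, had at least 13375 counts in PB 1 and each control pool, but 2441 and 3117 in PB 2 and 3. The neighbouring Ddc, which encodes DOPA decarboxylase, had 3.09, 3.65 and 3.16 CPM in control and 2.95, 5.98 and 3.79 CPM in PB 1, 2 and 3 (log2 fold change 0.36, SE 0.26). Both genes were thus above all control pools in PB 2 and 3 and below them in PB 1. For Ddc the margins were small in PB 1 (2.95 against 3.09 CPM in control 1) and PB 3 (3.79 against 3.65 CPM in control 2).

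In the Peg3 domain, both paternally expressed genes had PB values above all controls, as had 5.10% of all genes. Peg3, a zinc finger gene, had 1012, 964 and 973 CPM in control and 1078, 1163 and 1039.7 CPM in PB-exposed ovaries (log2 fold change 0.15, SE 0.058, FDR = 0.888). Usp29, which encodes a ubiquitin-specific peptidase and is transcribed from the same region in the opposite direction, had 22.5, 20.8 and 19.5 CPM in control and 22.6, 24.7 and 23.1 CPM in PB-exposed ovaries (log2 fold change 0.17, SE 0.074, FDR = 0.888). For Usp29, PB 1 was just above control 1. The per-length ratio of Peg3 to Usp29 was 29.1 ± 1.64 in control and 29.2 ± 0.895 in PB-exposed ovaries. A rare Usp29 transcript, XM_017322424.1, was not counted in any control pool and had 10, 45 and 17 counts in PB 1, 2 and 3. Against the floor per library it was at least 7.23-fold higher. DESeq2 called it (FDR = 0.00267) and edgeR did not (FDR = 0.790). The other named Usp29 transcripts were MSTRG.15859.18 with 50.7% of the counts (log2 fold change -0.14, SE 0.19) and MSTRG.15859.1 with 33.7% (0.69, SE 0.25, FDR = 1.00). The maternally expressed Zim1 overlapped between the groups (log2 fold change 0.16, SE 0.13).

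Groups without overlap were found in 6 of the 40 members, which are Peg3, Usp29, Peg12, Ube3a and Meg3 with PB above control and Ascl2 with PB below, against 10.7% of all genes (5.10% above and 5.61% below). By locus, Meg3 overlapped and H19 did not, as given above. In the Snrpn-Ube3a cluster, the region of the Prader-Willi and Angelman syndromes in humans, the 5 tested genes had log2 fold changes between 0.015 and 0.15. Ube3a, an E3 ubiquitin ligase gene that is imprinted in neurons, had 132, 130.5 and 125 CPM in control and 136, 139 and 149 CPM in PB-exposed ovaries (0.13, SE 0.052, FDR = 0.888). Peg12, a Frat family gene, had 24.7, 23.9 and 24.2 CPM in control and 24.8, 29.4 and 26.7 CPM in PB-exposed ovaries (0.15, SE 0.074, FDR = 0.888), with PB 1 just above control 1. The necdin gene Ndn (0.015, SE 0.060), its relative Magel2 (0.033, SE 0.18) and Mkrn3 (0.11, SE 0.11) overlapped between the groups. Snrpn and Snurf share 1 locus. Its counts were in NM_013670.3, which has no entry in the table of names, and in NM_033174.3 under the name Snurf. The locus had 22.9, 20.8 and 23.8 CPM in control and 21.5, 22.0 and 20.3 CPM in PB-exposed ovaries (log2 fold change -0.080, SE 0.071).

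In the Kcnq1-Cdkn1c cluster, 7 of the 8 genes had a log2 fold change below 0, whereas 50.7% of all genes were above 0. The exception was Kcnq1ot1, the paternally expressed non-coding RNA that represses the cluster in cis (0.15, SE 0.22). With a pool left out, the signs of Cdkn1c, Kcnq1 and Kcnq1ot1 each changed in at least 1 fit. Ascl2, a basic helix-loop-helix factor known from the placenta, had 0.967, 0.746 and 0.987 CPM in control and 0.534, 0.695 and 0.499 CPM in PB-exposed ovaries. The PB pools lay below the controls (log2 fold change -0.64, SE 0.23, FDR = 0.888). Phlda2, known for restraining placental growth, had 9.96, 5.75 and 10.3 CPM in control and 5.61, 6.52 and 4.89 CPM in PB-exposed ovaries (log2 fold change -0.61, SE 0.24, FDR = 0.888). Control 2 was within the range of the PB pools. The germ cell gene Pou5f1, chosen after its values were seen, had 30.6, 18.2 and 30.7 CPM in control and 17.0, 17.6 and 18.6 CPM in PB-exposed ovaries (log2 fold change -0.58, SE 0.20, FDR = 0.888). Of the 8 germ cell markers, Pou5f1, Dppa3 (-0.52) and Kit (-0.29) had an unadjusted p-value under 0.05, against 4.46% of all genes. The other 5 did not share these values, with log2 fold changes of -0.036 for Ddx4, -0.0031 for Dazl, -0.082 for Stra8, 0.25 for Mael and 0.34 for Sycp3, and in each of them pool 2 was the lowest of its group. The list summed to between 637 and 849 CPM in control and between 549 and 936 CPM in PB-exposed ovaries. Their part in the values of Ascl2 and Phlda2 was not tested. Cdkn1c had 576, 978 and 579.9 CPM in control and 539, 782 and 566 CPM in PB-exposed ovaries (log2 fold change -0.18, SE 0.25), with pool 2 the highest of both groups, and without control 2 the log2 fold change was 0.12. Its main transcript, MSTRG.17238.2, had 4724 counts in control 2 and between 38511 and 57778 in the other 5 pools. Restricted to transcripts of the RefSeq annotation, the log2 fold change of Cdkn1c was -1.64 (FDR = 0.917). Slc22a18 (-0.25, SE 0.20), Tssc4 (-0.16, SE 0.17), Kcnq1 (-0.039, SE 0.10) and Cd81 (-0.042, SE 0.042) overlapped between the groups.

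**Figure D5:**
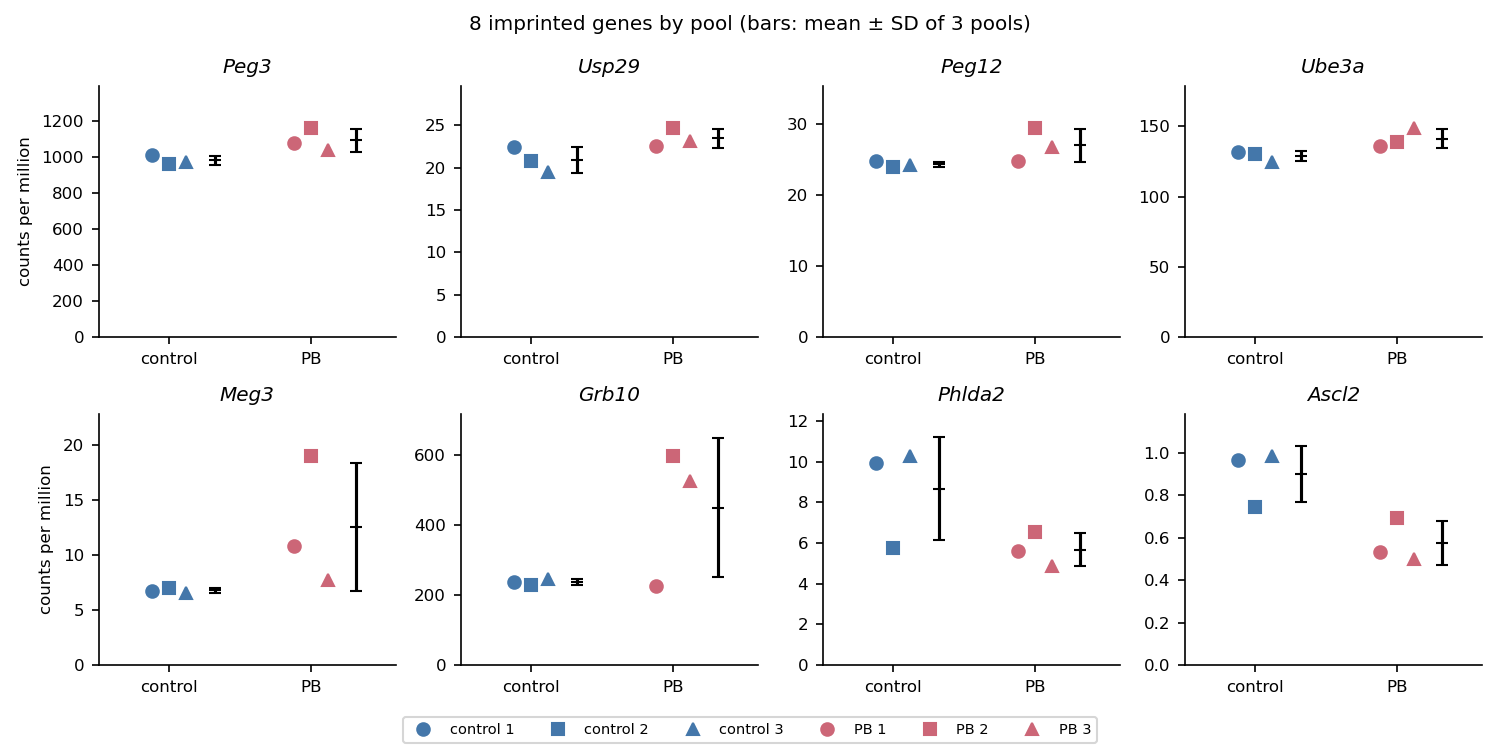
CPM of 8 imprinted genes in each pool, summed by gene name, with the mean and SD of the 3 pools of a group as bars to the right of the points. Meg3 and Grb10 vary most among the PB pools, with Grb10 at 224 CPM in PB 1 and at 597 and 524 CPM in PB 2 and 3.

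The Gnas locus produces several transcripts with different first exons and different imprinting. Transcripts that begin at the Gs-alpha start, expressed from both alleles in most tissues, had a per-length level of 974 ± 38.3 TPM (SD, n = 3) in control and 1065 ± 66.7 in PB-exposed ovaries. The maternally expressed Nesp transcripts were at 9.65, 17.6 and 19.1 TPM in control and 11.3, 36.6 and 18.3 in PB-exposed ovaries, with PB 2 the highest. The paternally expressed Gnasxl transcripts were at 3.95 ± 1.49 in control and 4.96 ± 1.68 in PB-exposed ovaries. The exon 1A transcripts, also paternally expressed, were at 7.23, 7.08 and 7.80 in control and 6.79, 4.85 and 6.86 in PB-exposed ovaries. They were the only 1 of the 4 groups without overlap, against 10.7% of all genes by TMM-scaled CPM. An exact permutation test of 3 against 3 pools cannot go below p = 0.10. These per-length levels carry no TMM scaling. NM_201616.2 of Gs-alpha held 94.1% of all Gnas counts, and its log2 fold change, which is TMM-scaled, was 0.026 (SE 0.079).

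The remaining members overlapped between the groups, with log2 fold changes from -0.31 to 0.13. These are Peg10 (0.088, SE 0.10), Sgce (-0.019, SE 0.057) and Asb4 (0.10, SE 0.17) of 1 cluster on chromosome 6, and Nnat (0.13, SE 0.084) with its host Blcap (-0.025, SE 0.061) on chromosome 2. Plagl1, a zinc finger factor known as a regulator of other imprinted genes, had a log2 fold change of 0.061 (SE 0.16). Impact, a regulator of the kinase GCN2, was among the most even members (0.0075, SE 0.050), with between 32.6 and 34.5 CPM in all pools. The splicing factor gene Zrsr1 had a value of -0.087 (SE 0.10), the amino acid transporter gene Slc38a4 one of -0.084 (SE 0.13), the inositol phosphatase gene Inpp5f one of 0.047 (SE 0.063) and Rasgrf1 one of -0.31 (SE 0.67). The most abundant transcripts of Igf2 (NM_010514.3, 0.042, SE 0.13), Cd81 (NM_133655.2, -0.039, SE 0.037) and H19 (NR_130974.1, 1.65, SE 1.49) were not called.

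By allele, the paternally expressed members together held 0.236% ± 0.0179 (SD, n = 3) of the per-length expression of all transcripts in control and 0.263% ± 0.0174 in the PB group, with overlapping pool values. The maternally expressed members held 0.401%, 0.103% and 0.0845% in control and 0.433%, 0.516% and 0.463% in PB-exposed ovaries. The 2 low control pools are those in which the H19 reads carried the name Mir675. By locus, the maternal share was 0.388% ± 0.0159 in control and 0.480% ± 0.0341 in the PB group. Without H19 it was 0.0753% ± 0.0109 and 0.0812% ± 0.0140. On this per-length scale, the maternal sum over loci differed by more than the spread between pools, and most of the difference was in H19. The members with tissue- or isoform-dependent imprinting held 0.134%, 0.129% and 0.141% in control and 0.142%, 0.154% and 0.144% in the PB group, also without overlap. As a share of CPM, without division by length, their groups overlapped. The per-length shares carry no TMM scaling, and the 2 scales can differ. Cd81 was at 240.5 TPM in control and 252 TPM in the PB group, but at 249.9 and 243 CPM. The H19 locus was at 3126 and 3985 TPM, and at 4740 and 5569 CPM. How much of the differences in share came from the scale was not tested.

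Beyond the members, a list of 39 other imprinted genes and a list of 20 genes that set, keep or remove imprints were examined in the same fit. Of the 34 other imprinted genes tested, 0 passed the thresholds. Against 4.46% of all genes, an unadjusted p-value under 0.05 was found in 3 of them. These were Dio3, the deiodinase gene of the Dlk1-Meg3 cluster (log2 fold change -0.37, SE 0.14, FDR = 0.888), Dhcr7, an enzyme gene of cholesterol synthesis (-0.16, SE 0.065, FDR = 0.888), and Zdbf2 (0.25, SE 0.10, FDR = 0.888). Dio3 had 3.52, 3.54 and 2.87 CPM in control and 2.84, 2.42 and 2.44 CPM in PB-exposed ovaries. Ano1 (0.087, SE 0.041) and Sfmbt2 (-0.21, SE 0.12) came next. Of the 19 factors tested, 0 passed and 1 had an unadjusted p-value under 0.05, against the same share of all genes. This was Dppa3, which protects maternal methylation in the zygote and is also a germ cell marker (-0.52, SE 0.21, FDR = 0.888). It had 20.1, 11.9 and 21.6 CPM in control and 12.2, 12.5 and 12.8 CPM in PB-exposed ovaries, so that control 2 lay below all PB pools and the other controls above them. The methyltransferase genes Dnmt3a (0.11, SE 0.049) and Dnmt1 (-0.088, SE 0.048) had small differences, as had Arid4b (0.15, SE 0.083) and Tet2 (0.15, SE 0.090).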

How the data were processed

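RNA from pools of E15.5 ovaries, 3 control and 3 PB, was sequenced strand-specifically. According to the submitters' processing notes and the study's methods, the authors aligned reads to mm10 with HISAT2 2.1.0, built a merged RefSeq-guided transcriptome with StringTie 1.3.5 and deposited raw counts per transcript from prepDE, which computes them from coverage. The strand setting of the assembly is not given in the sources used here. The columns of the authors' comparison (log2 fold changes and p-values by DESeq2 1.30.0) and 6 normalized columns were not used. Names, positions, class codes and exon lengths came from the deposited annotation, and no name was given to 1490 transcripts, which held 3.05% to 4.49% of the counts of a pool.

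Counts were summed by gene name and tested with edgeR 4.0.16 in R 4.3.3 (TMM, filterByExpr with a minimum count of 10, quasi-likelihood F-test, Benjamini-Hochberg adjustment over all 19435 genes or 51227 transcripts). The standard error is the size of the log2 fold change divided by the square root of F. Calls required a 2-fold change or more with an FDR up to 0.05. The alternatives were DESeq2 1.42.0 (Wald test, or its size factors in edgeR), no filter, an FDR of 0.1, RefSeq transcripts only, the pool number as a block and each pool left out. Sums by StringTie locus and the maternal share without H19 (also with RefSeq transcripts only) were added after seeing the data. The fits were tested on simulated data. Groups came from the sample titles.

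All members are named. Transcripts are named where edgeR or DESeq2 called them, together with transcripts of the same gene that hold at least 10% of its counts, as is the most abundant transcript of each of the 8 most abundant members. Of the 2 lists of other imprinted genes and factors, at most 5 genes each with the smallest p-values are named, and of each marker list the most abundant gene. The Grb10 transcripts, MSTRG.17225.1, the locus transcripts of Snrpn and Rtl1, the first-exon groups of Gnas, and Pou5f1 were chosen after their values were seen. The members and lists were chosen with earlier results of these data known. Sequences are from RefSeq tables of GRCm38.p6, the assembly that mm10 names.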

Additional observations from a re-analysis of the deposited data

How the results depend on the processing

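Of the members, 0 were called over all genes tested in the main test and with DESeq2's size factors, DESeq2's Wald test, no filter, an FDR of 0.1, RefSeq transcripts only, locus sums and the replicate block, and 0 to 1 with a pool left out (H19 without control 1 at 4.45, Grb10 without PB 1 at 1.24). Over all genes, 3 calls became 11 with DESeq2's Wald test, 8 with RefSeq transcripts only, 0 with the replicate block and 3 to 9 with a pool left out. Over all transcripts, 17 calls became 1172 with DESeq2's Wald test, 51 at an FDR of 0.1, 0 with the replicate block and 0 to 19 with a pool left out. Of the member transcripts, 1 call became 4 with DESeq2's Wald test, 0 with the replicate block and 0 in each fit with a pool left out. The cause of these differences was not tested. None of the other imprinted genes, imprint factors and cell type markers had a call in any of these fits by edgeR or DESeq2. The locus sums were not run for them. In edgeR's main test, at most 3 genes of a list had an unadjusted p under 0.05, against 4.46% of all genes.

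The replicate block changed the sign of Rian (0.025). The deviations of pools with the same number correlated at 0.093, 0.147 and -0.018, control 1 and control 3 correlated best with another number, and no source ties a number to a litter, so the pools were not treated as pairs. Some features were nevertheless alike in pools of the same number, such as the Peg3 transcripts, Cdkn1c (highest in pool 2 of both groups) and Zim1 (lowest in pool 2 of both groups), and whether the numbers mark a shared origin was not settled. RefSeq transcripts only turned Peg10 to -0.077 and Inpp5f to -0.038, and locus sums turned Meg3 to -0.20 and Rian to 0.22. With a pool left out, the sign of 19 of 40 members changed in at least 1 fit, none of them larger than 0.31 in size in the main test. The ranges of the log2 fold change were -0.056 to 0.028 for Igf2r, -0.035 to 0.26 for Airn, -0.022 to 0.18 for Peg10, -0.052 to 0.02 for Sgce, -0.082 to 0.26 for Asb4, -0.028 to 0.084 for Mest, -0.041 to 0.058 for Ndn, -0.17 to 0.13 for Magel2, -0.58 to 0.19 for Rian, -0.083 to 0.21 for Mirg, -0.36 to 0.12 for Cdkn1c, -0.0094 to 0.36 for Kcnq1ot1, -0.11 to 0.03 for Kcnq1, -0.066 to 0.20 for Plagl1, -0.06 to 0.02 for Blcap, -0.073 to 0.086 for Gnas, -0.014 to 0.032 for Impact, -0.17 to 0.055 for Slc38a4 and -0.65 to 0.25 for Rasgrf1. Among named transcripts they were -0.66 to 1.19 for MSTRG.15856.1, -0.11 to 0.28 for MSTRG.4332.2, -0.0068 to 0.31 for MSTRG.4332.7, -0.11 to 0.11 for NM_010514.3 and -0.062 to 0.075 for NM_201616.2. The other 21 members kept their sign with each pool left out.

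The difference in the paternal share (0.0266 percentage points) was 0.00934 with RefSeq transcripts only, 0.0583 as CPM and 0.0167 to 0.0367 with a pool left out. The maternal difference (0.275) was 0.409 with RefSeq transcripts only, 0.407 as CPM, 0.0919 by locus, 0.00601 without H19 and 0.219 to 0.377 with a pool left out. Without H19 and with RefSeq transcripts only it was -0.0243. The biological coefficient of variation was 20.9% for gene sums and 98.4% for transcripts, so that differences between transcripts were measured less precisely. Of the members tested, Rasgrf1 (5 to 31 per pool) and Ascl2 (53 to 95) had the fewest counts.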

Other observations

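Peg3 (chromosome 7) is divided in the deposited annotation between 2 assembled transcripts that hold 47.9% and 46.2% of its counts. In control 1, 2 and 3, MSTRG.15856.1 had 94176, 54789 and 0 counts, and in PB 1, 2 and 3 it had 100118, 62052 and 0. MSTRG.15856.2 had 0, 52734 and 84270 counts in control and 0, 51124 and 112470 in the PB pools. In both groups, pool 1 had reads under the first transcript alone, pool 3 under the second alone and pool 2 under both. The transcripts have a gap of 21 bases between exons at chr7:6708040-6708060 and at chr7:6708061-6708081, side by side, and they sum to a Peg3 level without such jumps. Their log2 fold changes were 0.18 (SE 3.31) and 0.13 (SE 3.29).

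A short form of Inpp5f that begins within the gene (XM_006507154.3, chr7:128688786-128696437) had 174, 420 and 761 counts in control and 1082, 564 and 548 in the PB pools, and the groups overlapped. In the Rian locus, the assembled transcript MSTRG.4355.7 under the name AF357359 had 4068, 6528 and 5553 counts in control and 7832, 8450 and 8513 in the PB pools, without overlap (log2 fold change 0.59, SE 0.15, FDR = 0.945 in edgeR). These transcripts were chosen after their values were seen.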
